A study of Homo sapiens with 12 samples.

Results

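The genes described here carry glucose into the cell, break it down to pyruvate, turn pyruvate into lactate and export it, or pass it into mitochondria and on to acetyl-CoA. They were taken by gene symbol from the deposited table: 32 genes on chromosomes 1 to 22 or X, of 60675 genes in all. All 32 had enough reads to be tested, among 15112 tested genes. The cells were U-2932, a line from a diffuse large B cell lymphoma of human origin, grown in RPMI with 10% FBS. They stably expressed Roquin2, an RNA-binding protein that promotes decay of its target mRNAs. The 4 groups of 3 libraries were Roquin2 Y691F with IgM, Roquin2 WT with IgM, Roquin2 Y691F untreated and Roquin2 WT untreated. IgM stands for F(ab')2-IgM, an antibody fragment that engages the B cell receptor, given at 10 µg/ml for 12 h. Every group carried an introduced Roquin2 form, and cells without one were not analysed here. The labels do not say whether 1 clone or several lines held a form, so the Roquin2 form cannot be told apart from other differences between the lines. The submitters describe the 3 libraries of a group as independent biological replicates, and the p-values measure the spread between these libraries.

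Glucose enters through GLUT transporters of the SLC2A family and is trapped by hexokinase. Phosphofructokinase commits it to glycolysis and is activated by fructose-2,6-bisphosphate, which the PFKFB enzymes make and break down. Lactate dehydrogenase regenerates NAD+ from pyruvate, the SLC16A transporters carry lactate over the plasma membrane, and the pyruvate dehydrogenase kinases (PDK) switch off pyruvate dehydrogenase and so keep pyruvate out of the mitochondrial route. B cells engaged through their receptor are known to raise glucose uptake and glycolysis. Many genes of the pathway are textbook targets of the transcription factors HIF-1 and MYC, which bind short DNA words around ACGTG and CACGTG.

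Library totals ran from 16465393 to 21478790 counts. RC3H2, the gene of Roquin2, averaged 206 ± 1.79 CPM in Y691F given IgM, against 121 ± 1.80 CPM in WT given IgM, and 209 ± 0.88 CPM in untreated Y691F, against 111 ± 1.08 CPM in untreated WT (mean ± SD, n = 3 libraries each). CPM are counts scaled to the same library total in every library, with TMM factors. RC3H2 mRNA differed between the lines together with the Roquin2 form, and the table has 1 row for the gene, which does not separate the introduced from the cell's own mRNA. Mitochondrial genes took 7.84% to 8.55% of counts in Y691F with IgM, 7.63% to 8.13% in WT with IgM, 8.76% to 8.82% in untreated Y691F and 8.23% to 8.68% in untreated WT. All 7 B cell markers examined were expressed, with a summed level of 2236 to 2293 CPM in Y691F with IgM, 2307 to 2348 CPM in WT with IgM, 2919 to 2950.1 CPM in untreated Y691F and 3307 to 3354 CPM in untreated WT, and the part of this difference in the results was not tested. Of 8 T and NK cell markers, 7 were below 1 CPM in every library, as were 7 of 8 myeloid markers. Of 9 fibroblast and epithelial markers 5 were below 1 CPM throughout, and the summed level of that list was 20.9 to 27.3 CPM over all libraries. In bulk RNA, a difference in the share of cells that express a gene and a difference in RNA per cell cannot be told apart.

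To show regulatory sequence next to genes that differed between the forms, the RefSeq promoter windows (GRCh38.p14, 250 bases before to 50 bases after the start site) of 5 members that were lower in Y691F in both comparisons are printed with 1 that was higher in both, DLAT. The 6 were chosen after their values were seen. Capitals mark every match of ACGTG on either strand, that is ACGTG or CACGT as read here. Runs of 6 capitals are the palindrome CACGTG, in which a match on each strand overlaps.
HK2 (chr2:74834920-74835219, plus strand): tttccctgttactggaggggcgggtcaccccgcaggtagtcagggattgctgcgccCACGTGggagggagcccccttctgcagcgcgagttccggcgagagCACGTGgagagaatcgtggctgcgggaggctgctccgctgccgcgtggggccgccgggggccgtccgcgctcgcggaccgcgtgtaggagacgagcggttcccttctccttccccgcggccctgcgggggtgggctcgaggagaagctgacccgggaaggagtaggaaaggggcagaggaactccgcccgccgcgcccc
ALDOC (chr17:28576846-28577145, minus strand): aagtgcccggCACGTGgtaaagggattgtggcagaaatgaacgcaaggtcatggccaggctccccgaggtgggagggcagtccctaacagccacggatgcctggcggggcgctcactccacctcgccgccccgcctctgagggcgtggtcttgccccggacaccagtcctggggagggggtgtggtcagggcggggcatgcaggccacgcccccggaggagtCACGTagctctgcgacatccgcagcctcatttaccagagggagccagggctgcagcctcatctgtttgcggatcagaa
PGK1 (chrX:78103998-78104297, plus strand): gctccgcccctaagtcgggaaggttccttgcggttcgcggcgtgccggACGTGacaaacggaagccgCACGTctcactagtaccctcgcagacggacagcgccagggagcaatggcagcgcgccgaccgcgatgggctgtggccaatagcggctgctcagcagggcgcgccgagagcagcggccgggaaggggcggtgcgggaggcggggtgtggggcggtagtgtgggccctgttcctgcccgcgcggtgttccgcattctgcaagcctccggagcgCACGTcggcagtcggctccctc
LDHA (chr11:18394313-18394612, plus strand): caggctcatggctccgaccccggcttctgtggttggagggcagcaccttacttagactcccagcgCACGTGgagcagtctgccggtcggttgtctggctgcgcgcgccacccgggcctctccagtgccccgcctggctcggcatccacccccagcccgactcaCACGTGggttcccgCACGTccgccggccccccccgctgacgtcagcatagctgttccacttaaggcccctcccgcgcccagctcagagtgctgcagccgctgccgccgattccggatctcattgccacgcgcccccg
SLC16A3 (chr17:82228792-82229091, plus strand): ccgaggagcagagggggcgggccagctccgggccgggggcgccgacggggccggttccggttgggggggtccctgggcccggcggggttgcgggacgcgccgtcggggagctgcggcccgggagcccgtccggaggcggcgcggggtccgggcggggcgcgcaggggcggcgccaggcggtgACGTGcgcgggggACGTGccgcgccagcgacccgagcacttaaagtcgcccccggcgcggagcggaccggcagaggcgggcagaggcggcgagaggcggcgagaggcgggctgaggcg
DLAT (chr11:112025158-112025457, plus strand): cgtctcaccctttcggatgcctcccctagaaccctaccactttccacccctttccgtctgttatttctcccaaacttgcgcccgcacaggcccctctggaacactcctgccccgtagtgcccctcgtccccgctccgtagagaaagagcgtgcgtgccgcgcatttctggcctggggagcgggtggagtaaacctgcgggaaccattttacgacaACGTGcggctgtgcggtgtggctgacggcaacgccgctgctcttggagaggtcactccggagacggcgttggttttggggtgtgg

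Windows were found for 29 of the 32 members, 59 windows in all because some genes have several start sites. For HK2, LDHA and SLC16A3 the window with the most matches is shown. Of the 29 genes, 18 had ACGTG on either strand in at least 1 window (62.1%), against 24.9% of 27305 genes. By window the shares were 37.3% for the members and 21.4% of 35116 windows. The palindrome CACGTG was in 13.6% of the members' windows and in 7.26% of all. Among the 16 members lower in Y691F in both comparisons, 12 had a match and 5 the palindrome, and among the other 13 with a window 6 and 3 did. The 16 genes had 36 windows and the 13 had 23, and more windows give more places for a match. By window, 44.4% of the 36 and 26.1% of the 23 had a match. The palindrome was in 13.9% and 13.0% of them, nearly the same share. A match is a string in these letters and does not show that a factor binds there. DLAT, which was higher in Y691F, holds 1 too.

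Per kilobase, GAPDH was the highest of the members, with a mean of 1473 RPKM over the 4 groups in the authors' deposited values. It was followed by ENO1 (470.4 RPKM), PKM (401 RPKM), ALDOA (271 RPKM) and TPI1 (199 RPKM). LDHA and LDHB stood next at 149.5 and 149 RPKM. The lowest were SLC16A3, PFKFB4 and PDK1, at 1.76, 1.38 and 0.996 RPKM. The members differed widely in how much they varied between libraries. The highest RPKM was 27.9 times the lowest for SLC2A3, 7.67 times for PDK2, 4.81 times for HK2 and 4.05 times for SLC16A3, which headed the 32, but only 1.21 times for PKM and 1.28 times for GAPDH. Together the 32 genes took 1.902% to 1.94% of all counts in Y691F with IgM and 1.97% to 2.001% in WT with IgM, and 1.79% to 1.83% in untreated Y691F and 2.04% to 2.07% in untreated WT. The libraries of the 4 groups did not overlap in this share. The order above untreated Y691F rests on GAPDH and PKM and on the scaling. Without those 2 genes the share was 0.974% to 1.007% in Y691F with IgM, 1.089% to 1.112% in WT with IgM, 0.843% to 0.859% in untreated Y691F and 0.982% to 0.993% in untreated WT, so that Y691F with IgM overlapped untreated WT. In CPM, which use TMM factors, the 32 genes summed to 20277 to 20529 in Y691F with IgM, 20719 to 21008 in WT with IgM, 16810 to 17391 in untreated Y691F and 19493 to 19928 in untreated WT. Untreated Y691F was the lowest group by all 3 measures, and WT with IgM the highest by the last 2.

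The comparison of Y691F with WT asked which mRNAs differed with the Roquin2 form, at rest and after receptor engagement. Most glycolytic genes were lower in Y691F. None of the 5 genes of pyruvate import and oxidation was called lower, which in so few genes is near the share of all tested genes. With IgM 18 of the 32 members were lower in Y691F and 7 were higher, by the edgeR quasi-likelihood test at an adjusted p under 0.05 (from here on, called). Of all tested genes 20.2% were called lower and 21.9% higher. The members' median log2 change was -0.14, against -0.00491 for all tested genes. In untreated cells 22 members were lower and 2 higher, where 16.1% of all tested genes were called lower and 15.1% higher. Here the medians were -0.23 for the members and -0.00779 for all tested genes. The differences were mostly modest. A change of at least 1.5-fold was reached by 5 members with IgM, all lower in Y691F (15.6% of the members, against 9.96% of all tested genes in either direction), and by 2 in untreated cells, also lower (6.25% of the members, against 6.27%).

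The comparisons with IgM and without share no library. In both, 16 members were lower in Y691F: SLC2A1, HK2, PFKL, PFKM, PFKP, ALDOA, ALDOC, TPI1, PGK1, PGAM1, ENO1, ENO2, LDHA, PDK1, PFKFB3 and SLC16A3. Of all tested genes 20.2% were called lower with IgM and 16.1% untreated. The shares of all tested genes called the same way in both comparisons were not computed. PDK2 and DLAT were higher in both. GAPDH was the 1 member called in opposite directions, higher with IgM and lower untreated. Over the 32 members the log2 changes of both comparisons had a Pearson correlation of 0.541 and a Spearman correlation of 0.758, given as a description over genes of the same libraries. Neither correlation was computed over all tested genes. The log2 change of Y691F over WT was more negative with IgM than untreated for 7 of the 32 members, and not so for 25. As examples, the gap between the lines was larger with IgM for SLC2A1, ENO2 and PDK1. It was smaller with IgM than untreated for PFKFB4 and ALDOC, and each of these 5 differences was itself called. The plot of Y691F over WT shows both states side by side.

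**Figure D1:**
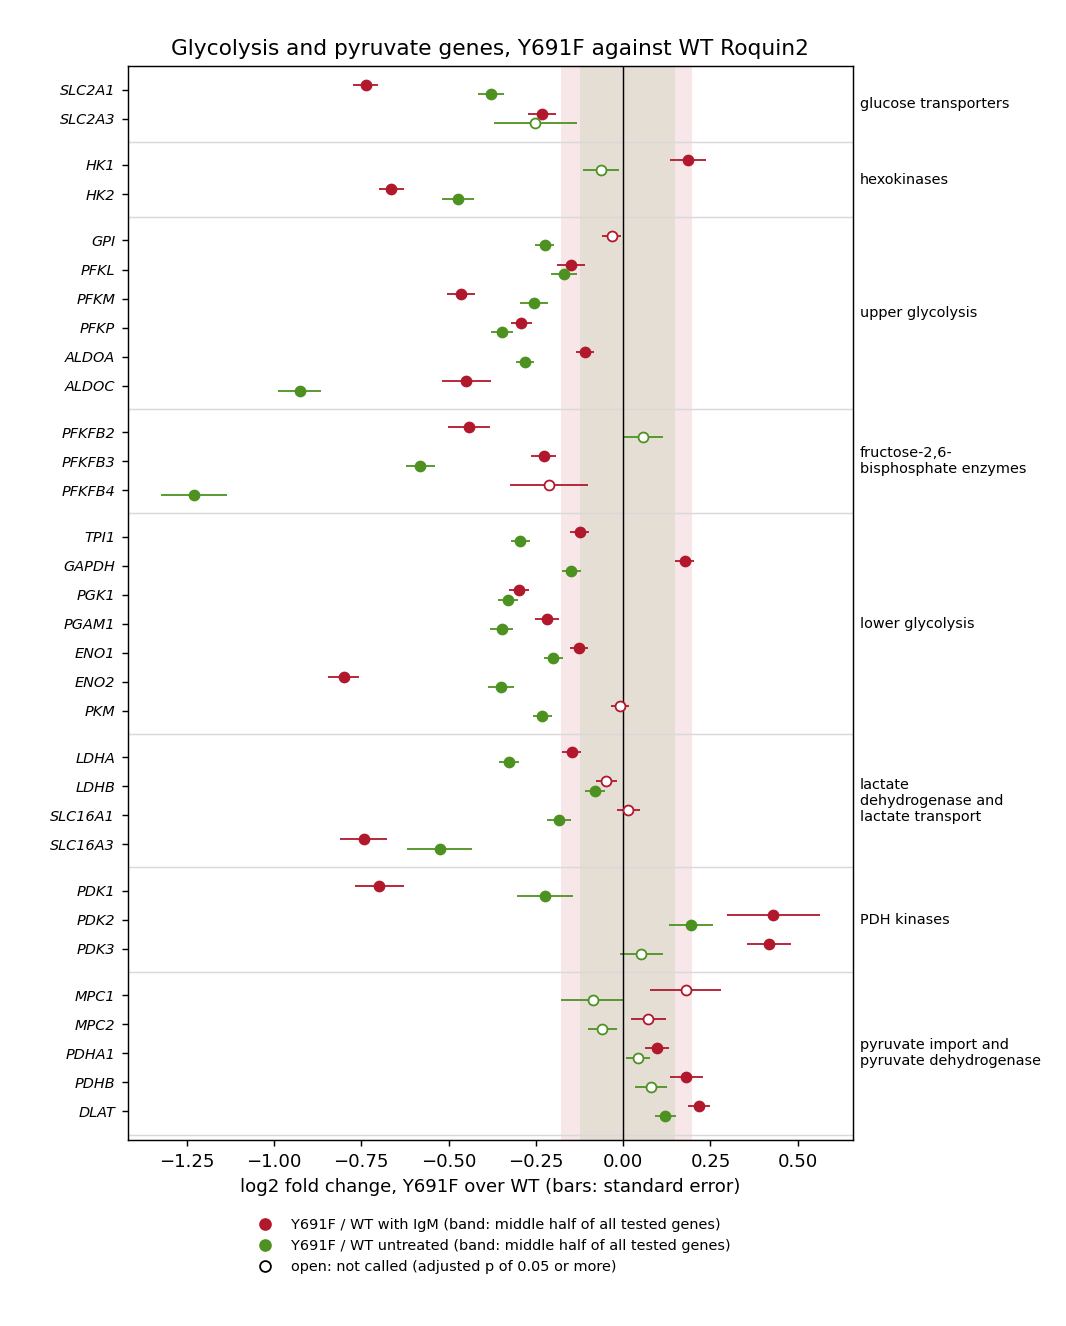
Log2 fold change of Y691F over WT (horizontal axis) for each of the 32 genes, ordered by their place in the pathway, with IgM in red and untreated in green. Filled points passed the test, bars are standard errors and bands span the middle 50% of all tested genes. Points of the glycolytic steps lie mostly left of 0, down to -1.23 for PFKFB4 in untreated cells. The pyruvate dehydrogenase genes PDHA1, PDHB and DLAT lie right of 0 in both states. The pyruvate carrier genes MPC1 and MPC2 lie right of 0 with IgM and left of 0 untreated, and were not called.

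IgM raised both glucose transporter genes, HK2, PFKFB3, LDHA, PDK1 and both lactate carrier genes in both lines, and lowered PDK2, ENO2, MPC2, PFKL, LDHB and DLAT in both. The comparison addresses what receptor engagement changed in each line, as plotted for IgM over untreated. In Y691F 19 members rose and 8 fell, and in WT 16 rose and 12 fell. The background was high: 37.1% of all tested genes rose and 38.7% fell in Y691F, and 38.4% rose and 38.5% fell in WT. Changes of at least 1.5-fold were made by 9 members in Y691F (28.1%, against 41.0% of all tested genes) and by 11 in WT (34.4%, against 43.1%). The medians of the members were 0.20 in Y691F and 0.046 in WT, and those of all tested genes -0.011 and 0.0016. The responses of the 2 lines share no library, and over the 32 members their Pearson correlation was 0.96 and their Spearman correlation 0.874. SLC2A3 (4.44 in Y691F and 4.42 in WT) and PDK2 (-2.27 in Y691F and -2.51 in WT) were the extremes of both responses. The correlation over all tested genes was not computed, so these values do not set the members apart from other genes. In both lines, 14 members rose and 6 fell, and the shares of all tested genes called the same way in both were not computed. PFKM and PFKFB2 fell in Y691F and rose in WT, and GAPDH and PKM rose in Y691F and fell in WT. Each IgM response uses libraries that a comparison of the forms uses too, so their values are set side by side below and not correlated.

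The IgM responses depend on the scaling, because the median of all tested genes moved to -0.18 in Y691F and -0.13 in WT when library totals alone were used. With that scaling 13 members rose and 12 fell in Y691F, and 13 rose and 16 fell in WT. Of the 15112 tested genes 4245 then rose and 7265 fell in Y691F, and 4642 rose and 6776 fell in WT. Among all calls, the share of rises in Y691F was 36.9% with library totals and 48.9% with TMM. Small responses of GAPDH, TPI1 and PKM in Y691F and of PFKM and PGAM1 in WT changed sign and lost their call with library totals, and GPI and PDHB in Y691F were then called lower. HK1, PFKP and PGAM1 in Y691F and PFKP in WT lost the call of a rise, and HK1, TPI1, PDK3 and PDHB in WT and ALDOC and MPC1 in Y691F gained the call of a fall. All other calls of IgM responses among the 32 genes kept their direction and stayed called with library totals.

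**Figure D2:**
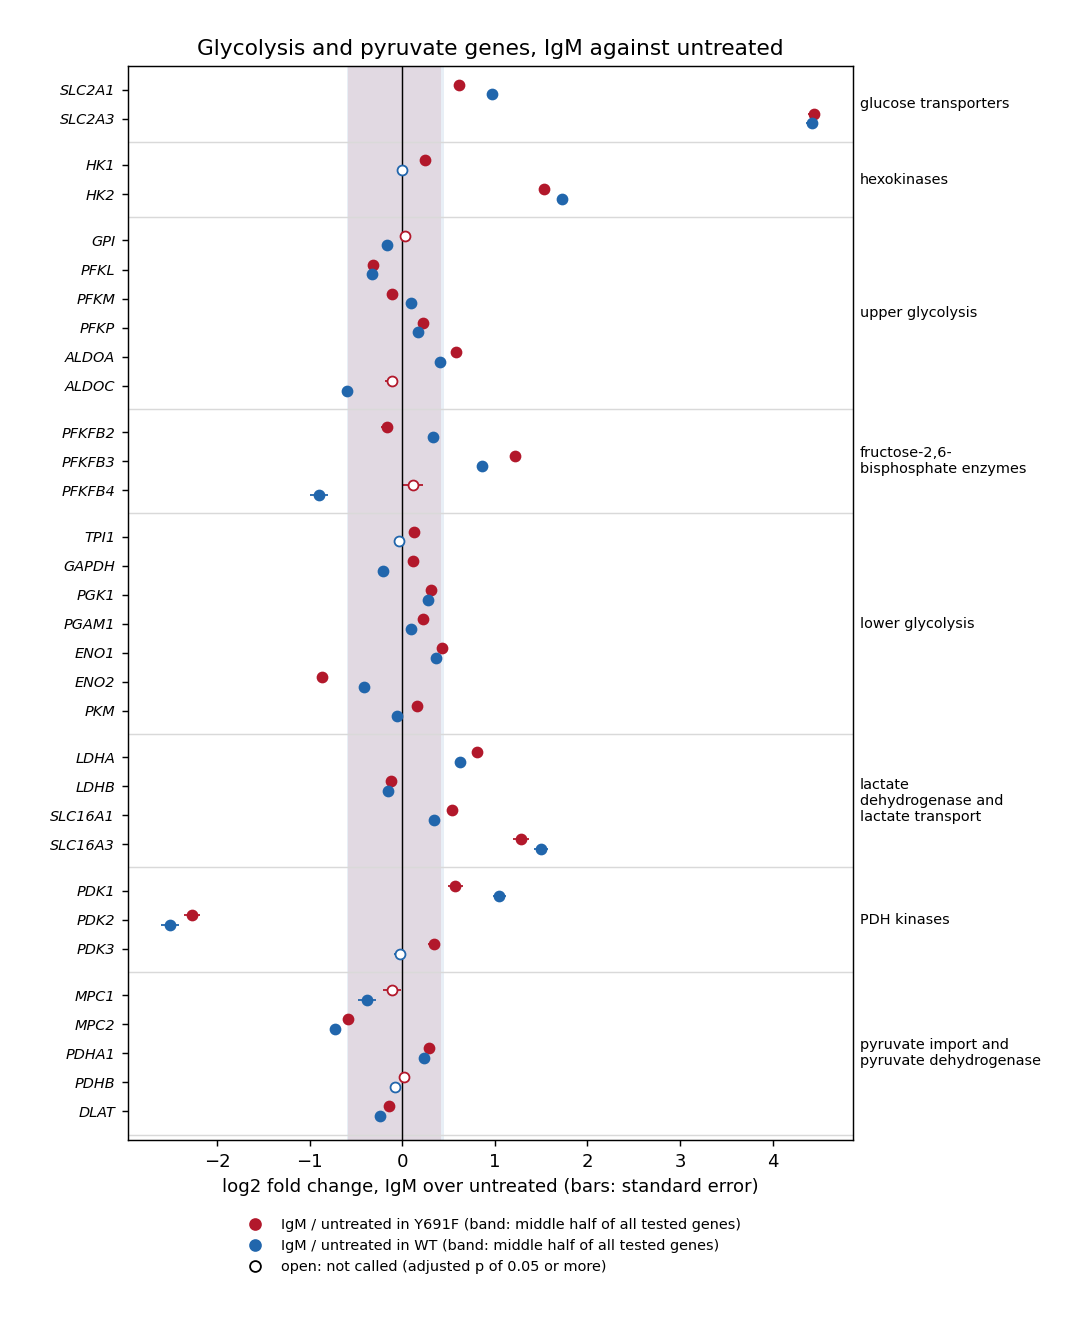
Log2 fold change of IgM over untreated (horizontal axis) for each of the 32 genes, in Y691F in red and in WT in blue. Filled points passed the test, bars are standard errors and bands span the middle 50% of all tested genes. SLC2A3 lies at 4.44 in Y691F and 4.42 in WT, PDK2 at -2.27 in Y691F and -2.51 in WT, and most enzymes of lower glycolysis lie within the bands. With library totals in place of TMM scaling the small responses of GAPDH, TPI1 and PKM in Y691F and of PFKM and PGAM1 in WT change sign.

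The difference between the responses (response in Y691F minus response in WT, which equals the difference between the forms with IgM minus that without) was called for 19 of 32 members. It was above 0 for 13 and below 0 for 6, where 14.7% and 11.0% of all tested genes were. With library totals the counts were 12 and 6, where 1846 and 2134 of the 15112 tested genes were called above and below 0. The share of positive differences among all calls was then 46.4% in place of 57.1%. Positive ones included PFKFB4 (1.02), ALDOC, PDK3, PFKFB3 and the abundant enzymes GAPDH, PKM, GPI, LDHA, ALDOA and TPI1. The other positive ones were HK1, PGAM1 and SLC16A1. Negative ones were PFKFB2 (-0.50), PDK1, ENO2, SLC2A1, PFKM and HK2.

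Glucose transporters come first in the pathway. SLC2A1 (ENSG00000117394, chromosome 1, 42925375 to 42959173, minus strand; coordinates as deposited, GRCh38) encodes GLUT1, the widely expressed glucose carrier. It had 130.3, 129 and 124 CPM in Y691F with IgM, against 205, 219 and 216 CPM in WT with IgM, and 86.4, 85.3 and 78.7 CPM in untreated Y691F, against 113, 107 and 106 CPM in untreated WT. The groups did not overlap, and Y691F was the lower one in both states. The difference was 1.67-fold with IgM (log2 -0.74, SE 0.035, adjusted p = 1.11e-32) and 1.299-fold untreated (log2 -0.38, SE 0.038, adjusted p = 3.49e-14). IgM raised SLC2A1 by 0.61 in Y691F and by 0.97 in WT, a smaller rise in Y691F (difference -0.36, adjusted p = 2.02e-08).

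SLC2A3 (ENSG00000059804, chromosome 12, 7919230 to 7936275, minus strand) encodes GLUT3, a carrier with high affinity for glucose. With IgM it had 107, 111 and 97.9 CPM in Y691F, against 129, 122 and 122 CPM in WT. Untreated it had only 5.198, 5.13 and 4.23 CPM in Y691F, against 5.35, 5.96 and 6.02 CPM in WT. The IgM libraries thus stood far above the untreated ones in both lines. Its rise was the largest of the 32 genes, 21.7-fold in Y691F (log2 4.44, SE 0.066, adjusted p = 3.39e-70) and 21.5-fold in WT (log2 4.42, SE 0.063, adjusted p = 8.52e-72). The responses differed by 0.019 with an interval of -0.22 to 0.26 (95%), and no difference was called. With IgM, Y691F was lower by a small amount (-0.23, adjusted p = 6.25e-07), and at rest -0.25 was not called (adjusted p = 0.0975). Per kilobase, SLC2A3 made up 39.8 ± 1.05% of the summed RPKM of both transporters in Y691F with IgM and 31.8 ± 1.42% in WT with IgM, and 4.43 ± 0.267% in untreated Y691F and 4.09 ± 0.372% in untreated WT. The share was larger in Y691F than in WT with IgM, where SLC2A1 had the larger fold difference of the pair. SLC2A14, a near copy of SLC2A3, had 163 to 231 counts in the IgM libraries beside 1545 to 2265 for SLC2A3, and reads of the 2 genes may be split between them.

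The hexokinase genes parted. HK2 (ENSG00000159399, chromosome 2, 74833981 to 74893359, plus strand) encodes the inducible, mitochondria-bound hexokinase, and HK1 the constitutive one. HK2 had 137, 144 and 131 CPM in Y691F with IgM, against 213, 224 and 218 CPM in WT with IgM, and 49.1, 50.3 and 43.2 CPM in untreated Y691F, against 63.7, 65.6 and 68.7 CPM in untreated WT. Y691F was lower without overlap, by 1.58-fold with IgM (log2 -0.66, SE 0.036, adjusted p = 1.76e-27) and 1.39-fold untreated (log2 -0.47, SE 0.046, adjusted p = 2.00e-14). IgM raised HK2 2.89-fold in Y691F and 3.31-fold in WT. The smaller rise in Y691F (-0.19, adjusted p = 0.00861) was no longer called without replicate 2 of untreated Y691F (adjusted p = 0.0611). HK1 had 41.6, 44.1 and 45.4 CPM in Y691F with IgM, against 37.8, 39.4 and 38.0 CPM in WT with IgM, and 36.9 ± 2.02 CPM in untreated Y691F, against 38.6 ± 0.716 CPM in untreated WT. It was higher in Y691F with IgM (0.19, adjusted p = 0.00227) and not called at rest (-0.063, adjusted p = 0.384). HK1 rose with IgM in Y691F by 0.24, a call lost with library totals (adjusted p = 0.182). HK1 held 24.1 ± 1.38% of the summed RPKM of both genes in Y691F with IgM, 14.9 ± 0.106% in WT with IgM, 43.7 ± 1.44% in untreated Y691F and 36.9 ± 0.824% in untreated WT. The share of the constitutive form was larger in Y691F than in WT in both states.

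**Figure D3:**
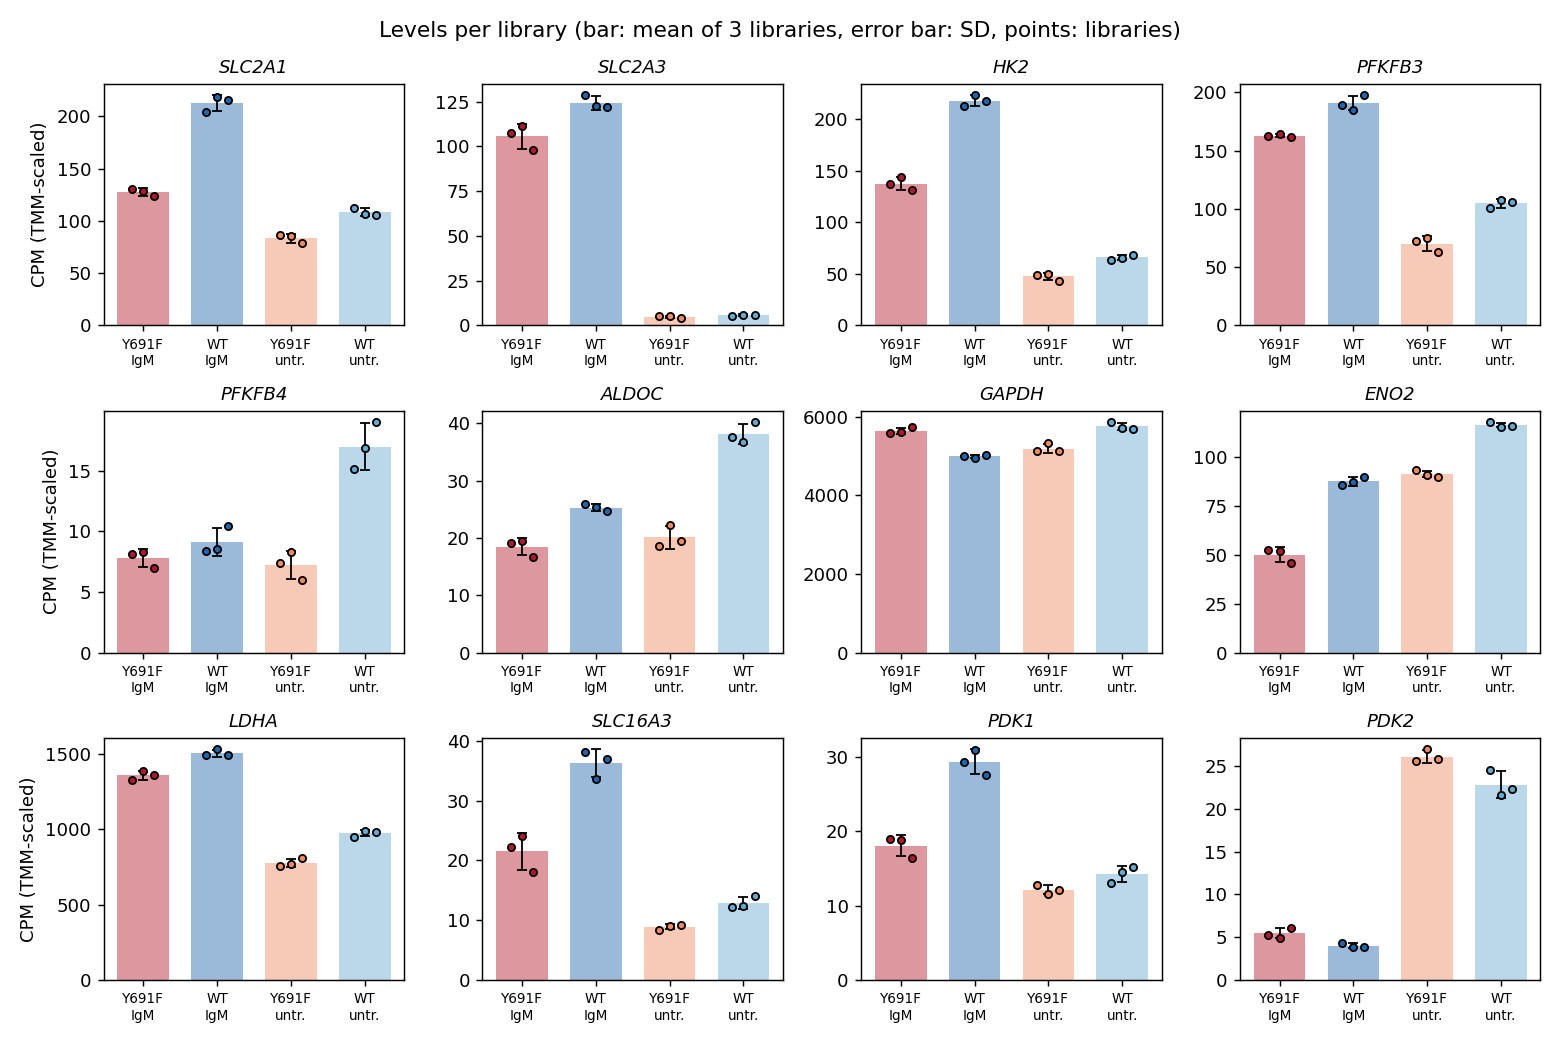
CPM (vertical axes, from 0) of 12 of the genes in every library of the 4 groups, with bars for the mean of 3 libraries and error bars for the SD. In most panels the Y691F bar is below the WT bar beside it, as for SLC2A1 with 128 against 213 CPM with IgM, while PDK2 and GAPDH with IgM show the opposite order.

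Next comes phosphoglucose isomerase. GPI had 618 ± 6.25 CPM in Y691F with IgM, against 632 ± 9.63 CPM in WT with IgM, and no difference was called (-0.033, adjusted p = 0.357, interval -0.086 to 0.021). In untreated cells it was lower in Y691F, at 605 ± 14.02 CPM against 706 ± 7.96 CPM in WT (-0.22, adjusted p = 3.92e-11). The phosphofructokinase genes PFKP (platelet type), PFKM (muscle type) and PFKL (liver type) were lower in Y691F in both states. PFKP held 76.1 ± 0.408% of the summed RPKM of the 3 genes in Y691F with IgM and 75.8 ± 0.0994% in WT with IgM. Its log2 change in Y691F was -0.29 with IgM (adjusted p = 2.95e-13) and -0.35 untreated (adjusted p = 2.40e-16). PFKM had 63.9, 61.2 and 60.9 CPM in Y691F with IgM, against 86.8, 84.7 and 85.3 CPM in WT with IgM (log2 -0.46, SE 0.041, adjusted p = 5.97e-17). In untreated cells PFKM had 66.9 ± 1.52 CPM in Y691F, against 79.9 ± 0.455 CPM in WT (-0.26, adjusted p = 8.81e-08). Muscle-type PFKM was thus lower in every Y691F library than in any WT library of the same state. PFKL was lower by smaller amounts (log2 -0.15 with IgM, adjusted p = 0.00166, and -0.17 untreated, adjusted p = 1.48e-04). IgM lowered PFKL in both lines (-0.31 in Y691F and -0.33 in WT) and raised PFKP (0.23 in Y691F and 0.17 in WT), although the PFKP rises were not called with library totals (adjusted p = 0.0857 and 0.256). PFKM fell with IgM in Y691F (-0.11, adjusted p = 0.0136) and rose in WT (0.10, adjusted p = 0.0183). The first call was lost without replicate 2 of Y691F with IgM (adjusted p = 0.0602) and the second without replicate 1 of WT with IgM (adjusted p = 0.0729). The DESeq2 Wald test made neither call (adjusted p = 0.0718 in Y691F and 0.075 in WT). By edgeR the first was also lost without a filter on low counts (adjusted p = 0.0532). The second was also lost with at least 5 CPM in 3 libraries (adjusted p = 0.161).

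The PFKFB genes encode the enzymes that set fructose-2,6-bisphosphate, and each moved differently. PFKFB3 (ENSG00000170525, chromosome 10, 6144934 to 6235545, plus strand) has the highest kinase over phosphatase activity of the family. It had 162, 165 and 162 CPM in Y691F with IgM, against 189, 185 and 198 CPM in WT with IgM, and 72.2, 75.03 and 62.7 CPM in untreated Y691F, against 100.4, 108 and 106 CPM in untreated WT. It was lower in Y691F in both states, less with IgM (log2 -0.23, SE 0.037, adjusted p = 2.79e-07) than untreated (log2 -0.58, SE 0.041, adjusted p = 7.71e-20). It therefore rose more with IgM in Y691F, 2.33-fold, than in WT, 1.82-fold (difference 0.35, adjusted p = 3.63e-07). PFKFB4 (ENSG00000114268, chromosome 3, 48517684 to 48562015, minus strand) was a low gene. With IgM it had 8.12, 8.31 and 6.97 CPM in Y691F, against 8.38, 8.53 and 10.5 CPM in WT, and no difference was called (-0.21, adjusted p = 0.122, interval -0.43 to 0.00634). Untreated it had 7.41, 8.28 and 5.99 CPM in Y691F, against 15.1, 16.9 and 18.99 CPM in WT, the largest difference between the forms of any member (log2 -1.23, SE 0.094, adjusted p = 8.09e-19). The untreated WT libraries were the ones that stood apart. IgM gave no call for PFKFB4 in Y691F (0.12, adjusted p = 0.346) and lowered it in WT (-0.90, adjusted p = 5.55e-14), a difference of 1.02 (adjusted p = 4.59e-08).

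PFKFB2 (ENSG00000123836, chromosome 1, 207034366 to 207081024, plus strand), whose product is activated by phosphorylation, had 26.6, 24.8 and 24.9 CPM in Y691F with IgM, against 34.1, 34.2 and 35.5 CPM in WT with IgM. Untreated it had 28.8, 26.9 and 29.96 CPM in Y691F, against 27.5, 27.6 and 27.4 CPM in WT, and these libraries overlapped. It was lower in Y691F with IgM only (log2 -0.44, SE 0.059, adjusted p = 9.36e-10, against 0.057, adjusted p = 0.493, untreated), and the difference between these differences was itself called (-0.50, adjusted p = 7.40e-07). IgM lowered it in Y691F (-0.17, adjusted p = 0.00838) and raised it in WT (0.33, adjusted p = 2.64e-07). The call in Y691F was lost without replicate 3 of untreated Y691F (adjusted p = 0.059) and by the DESeq2 Wald test (adjusted p = 0.0616). YOD1 overlaps PFKFB2 on the other strand with up to 212% of its counts. YOD1 changed by -0.34 in Y691F against WT with IgM and by 0.62 in Y691F and 0.85 in WT with IgM, and the part of its reads in the PFKFB2 counts was not tested. PFKFB3 held 88.7 ± 0.45% of the summed RPKM of the set in Y691F with IgM, 87.7 ± 0.299% in WT with IgM, 76.1 ± 1.49% in untreated Y691F and 77.7 ± 0.686% in untreated WT.

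Aldolase splits fructose-1,6-bisphosphate. ALDOA, the main form, had 2319.9, 2333 and 2305 CPM in Y691F with IgM, against 2462, 2493 and 2552 CPM in WT with IgM, and 1539, 1599 and 1521 CPM in untreated Y691F, against 1932, 1856 and 1874 CPM in untreated WT. Y691F was lower without overlap in both states, slightly with IgM (-0.11, adjusted p = 4.11e-04) and more untreated (-0.28, adjusted p = 3.66e-15). IgM raised ALDOA by 0.58 in Y691F and 0.41 in WT. ALDOC (ENSG00000109107, chromosome 17, 28573115 to 28577264, minus strand), the form best known from brain, had 19.1, 19.5 and 16.7 CPM in Y691F with IgM, against 25.9, 25.3 and 24.7 CPM in WT with IgM. In untreated cells it had 18.6, 22.3 and 19.4 CPM in Y691F, against 37.6, 36.8 and 40.2 CPM in WT. Y691F was lower without overlap, 1.37-fold with IgM (log2 -0.45, SE 0.07, adjusted p = 8.28e-08) and 1.90-fold untreated (log2 -0.93, SE 0.061, adjusted p = 2.69e-23). With IgM its change in Y691F, -0.11, was not called (adjusted p = 0.139), although it was without replicate 1 of untreated Y691F (adjusted p = 0.0435), and in WT it fell (-0.59, adjusted p = 1.04e-14). RP11-192H23.4 overlaps ALDOC on the same strand with up to 36.3% of its counts, and its part was not tested. The responses differed by 0.48 (adjusted p = 2.99e-05).

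Lower glycolysis yields ATP and pyruvate, and its genes are among the most abundant of the cell. Of the 7 genes of this segment, 5 were lower in Y691F with IgM, PKM was not called (-0.00948, adjusted p = 0.812, interval -0.062 to 0.043) and GAPDH was higher (0.18, adjusted p = 3.48e-08). Untreated, all 7 were lower, from -0.35 for PGAM1 and -0.35 for ENO2 to -0.15 for GAPDH (adjusted p at most 3.40e-06). Of all tested genes 20.2% were called lower with IgM and 16.1% untreated. The untreated differences of the 7 genes were small, and none reached 1.5-fold. GAPDH (ENSG00000111640, chromosome 12, 6533927 to 6538374, plus strand), often used as a reference gene, had 5596, 5602 and 5730.2 CPM in Y691F with IgM, against 5000.3, 4956 and 5025 CPM in WT with IgM. Untreated it had 5117, 5327 and 5125 CPM in Y691F, against 5857, 5701 and 5699 CPM in WT. The groups did not overlap in either state, and the order of the lines was opposite. IgM raised GAPDH in Y691F (0.12, adjusted p = 3.61e-05), which changed sign and was not called with library totals (-0.049, adjusted p = 0.0503), and lowered it in WT (-0.20, adjusted p = 9.00e-11). The difference of responses was 0.32 (SE 0.038, adjusted p = 1.94e-11).

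PGK1, which makes the first ATP of the segment, had 449, 466 and 451 CPM in Y691F with IgM, against 551, 569 and 559 CPM in WT with IgM, and 354, 372 and 372 CPM in untreated Y691F, against 460.4, 461 and 459 CPM in untreated WT. The gap between the lines was nearly the same in both states (log2 -0.30, SE 0.028, adjusted p = 9.65e-16 with IgM and log2 -0.33, SE 0.028, adjusted p = 1.66e-17 untreated), and the responses to IgM, 0.32 in Y691F and 0.28 in WT, differed by 0.032 with an interval of -0.045 to 0.11. ENO1, the main enolase, was lower in Y691F (log2 -0.13 with IgM and -0.20 untreated) and rose with IgM in both lines (log2 0.43 in Y691F and 0.36 in WT). ENO2 (ENSG00000111674, chromosome 12, 6913745 to 6923698, plus strand), the enolase known from neurons, went the other way with IgM. It had 52.3, 52.1 and 45.7 CPM in Y691F with IgM, against 85.4, 87.1 and 89.7 CPM in WT with IgM, and 93.02, 90.7 and 89.9 CPM in untreated Y691F, against 118, 115 and 116 CPM in untreated WT. With IgM, Y691F was 1.74-fold lower, the largest gap of the 32 genes in that state (log2 -0.80, SE 0.044, adjusted p = 1.15e-28), and at rest 1.27-fold lower. ENO2 fell with IgM in both lines (log2 -0.86 in Y691F and -0.41 in WT, difference -0.45, adjusted p = 5.52e-10). LRRC23 overlaps ENO2 on the same strand with up to 9.97% of its counts and fell with IgM in both lines (-0.96 in Y691F and -0.84 in WT), and its part in the ENO2 counts was not tested.

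TPI1, PGAM1 and PKM had small responses to IgM, and encode triosephosphate isomerase, phosphoglycerate mutase and pyruvate kinase. TPI1 stood at 642 ± 15.2 CPM in Y691F with IgM, 699.9 ± 3.297 CPM in WT with IgM, 586 ± 13.01 CPM in untreated Y691F and 718 ± 6.88 CPM in untreated WT. PGAM1 stood at 145 ± 5.49 CPM in Y691F with IgM, 169 ± 5.98 CPM in WT with IgM, 124 ± 3.11 CPM in untreated Y691F and 158 ± 1.94 CPM in untreated WT. PKM stood at 4283 ± 69.5 CPM in Y691F with IgM, 4311 ± 66.9 CPM in WT with IgM, 3819 ± 58.2 CPM in untreated Y691F and 4484 ± 98.3 CPM in untreated WT. In all 3, untreated Y691F was the lowest group. The rise of TPI1 in Y691F (0.13, adjusted p = 9.79e-06) turned to -0.037 with library totals and that of PKM (0.17, adjusted p = 5.17e-08) to -0.00449, and neither was then called. The fall of PKM in WT lay at the threshold (-0.057, adjusted p = 0.0468). It was lost without replicate 1 or 2 of WT with IgM, replicate 1 or 3 of untreated Y691F or replicate 1 or 3 of untreated WT (adjusted p = 0.0533 to 0.252). Without a filter on low counts it was lost too (edgeR, adjusted p = 0.0918). PGAM1 rose by 0.23 in Y691F, a call lost with library totals (adjusted p = 0.123). It rose by 0.10 in WT, a call lost without replicate 2 of WT with IgM (adjusted p = 0.153) and of opposite sign with library totals (-0.038). The difference of its responses (0.13, adjusted p = 0.0348) was lost without any of 7 libraries: replicate 2 of Y691F with IgM, replicate 1 or 3 of WT with IgM, replicate 1 or 3 of untreated Y691F and replicate 1 or 3 of untreated WT (adjusted p = 0.0622 to 0.124).

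Lactate dehydrogenase and the lactate carriers form the outlet. LDHA (ENSG00000134333, chromosome 11, 18394388 to 18408425, plus strand), the muscle-type subunit, had 1329.9, 1388 and 1361 CPM in Y691F with IgM, against 1494, 1531 and 1492 CPM in WT with IgM, and 755, 769.7 and 808 CPM in untreated Y691F, against 951, 991 and 983 CPM in untreated WT. Y691F was lower without overlap in both states, by 1.11-fold with IgM (log2 -0.15, SE 0.027, adjusted p = 4.32e-06) and 1.25-fold untreated (log2 -0.33, SE 0.028, adjusted p = 1.27e-17). IgM raised LDHA 1.75-fold in Y691F and 1.54-fold in WT (difference 0.18, adjusted p = 1.39e-04). LDHB, the heart-type subunit, fell slightly in both lines (-0.12 in Y691F, adjusted p = 2.06e-04, and -0.15 in WT, adjusted p = 3.68e-06). It was not called between the forms with IgM (-0.048, adjusted p = 0.19). Its call at rest (-0.079, adjusted p = 0.0256) came from libraries that overlapped and was lost without replicate 1 or 2 of untreated Y691F or replicate 2 or 3 of untreated WT (adjusted p = 0.0639 to 0.271). That call was also lost with library totals, with the 2 groups alone, without a filter and with at least 5 CPM in 3 libraries (edgeR, adjusted p = 0.0576 to 0.103). Per kilobase, LDHA made up 56.03 ± 0.292% of both subunits in Y691F with IgM, 57.7 ± 0.371% in WT with IgM, 40.2 ± 0.175% in untreated Y691F and 44.4 ± 0.45% in untreated WT. LDHA was thus the more abundant mRNA of the pair with IgM and LDHB the more abundant untreated, in both lines.

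SLC16A3 (ENSG00000141526, chromosome 17, 82228397 to 82261129, plus strand) encodes MCT4, the carrier tied to lactate export from glycolytic cells, and SLC16A1 encodes the broadly expressed MCT1. SLC16A3 had 22.2, 24.1 and 18.1 CPM in Y691F with IgM, against 38.1, 33.7 and 37.05 CPM in WT with IgM, and 8.42, 9.06 and 9.21 CPM in untreated Y691F, against 12.1, 12.3 and 14.1 CPM in untreated WT. The groups did not overlap, and Y691F was lower by 1.67-fold with IgM (log2 -0.74, SE 0.068, adjusted p = 1.75e-15) and 1.44-fold untreated (log2 -0.53, SE 0.093, adjusted p = 3.35e-06). It rose 2.43-fold with IgM in Y691F and 2.83-fold in WT, with no call for the difference (-0.22, adjusted p = 0.173, interval -0.45 to 0.011). CSNK1D overlaps SLC16A3 on the other strand and had up to 1564% of its counts. CSNK1D changed by 0.12 in Y691F against WT with IgM and -0.018 untreated, and it rose with IgM, by 0.95 in Y691F and 0.81 in WT. Whether its reads entered the SLC16A3 counts was not tested. SLC16A1 stood at 158 ± 2.597 CPM in Y691F with IgM and 156 ± 3.61 CPM in WT with IgM, with no call (0.015, adjusted p = 0.76, interval -0.051 to 0.08), and at 109 ± 2.798 CPM in untreated Y691F and 123 ± 2.21 CPM in untreated WT (-0.18, adjusted p = 1.04e-05). It rose more with IgM in Y691F (0.54) than in WT (0.34, difference 0.20, adjusted p = 7.97e-04). By RPKM it remained the main carrier gene, as SLC16A3 held 7.45 ± 1.06% of both in Y691F with IgM, 12.1 ± 0.763% in WT with IgM, 4.61 ± 0.259% in untreated Y691F and 5.79 ± 0.522% in untreated WT.

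**Figure D4:**
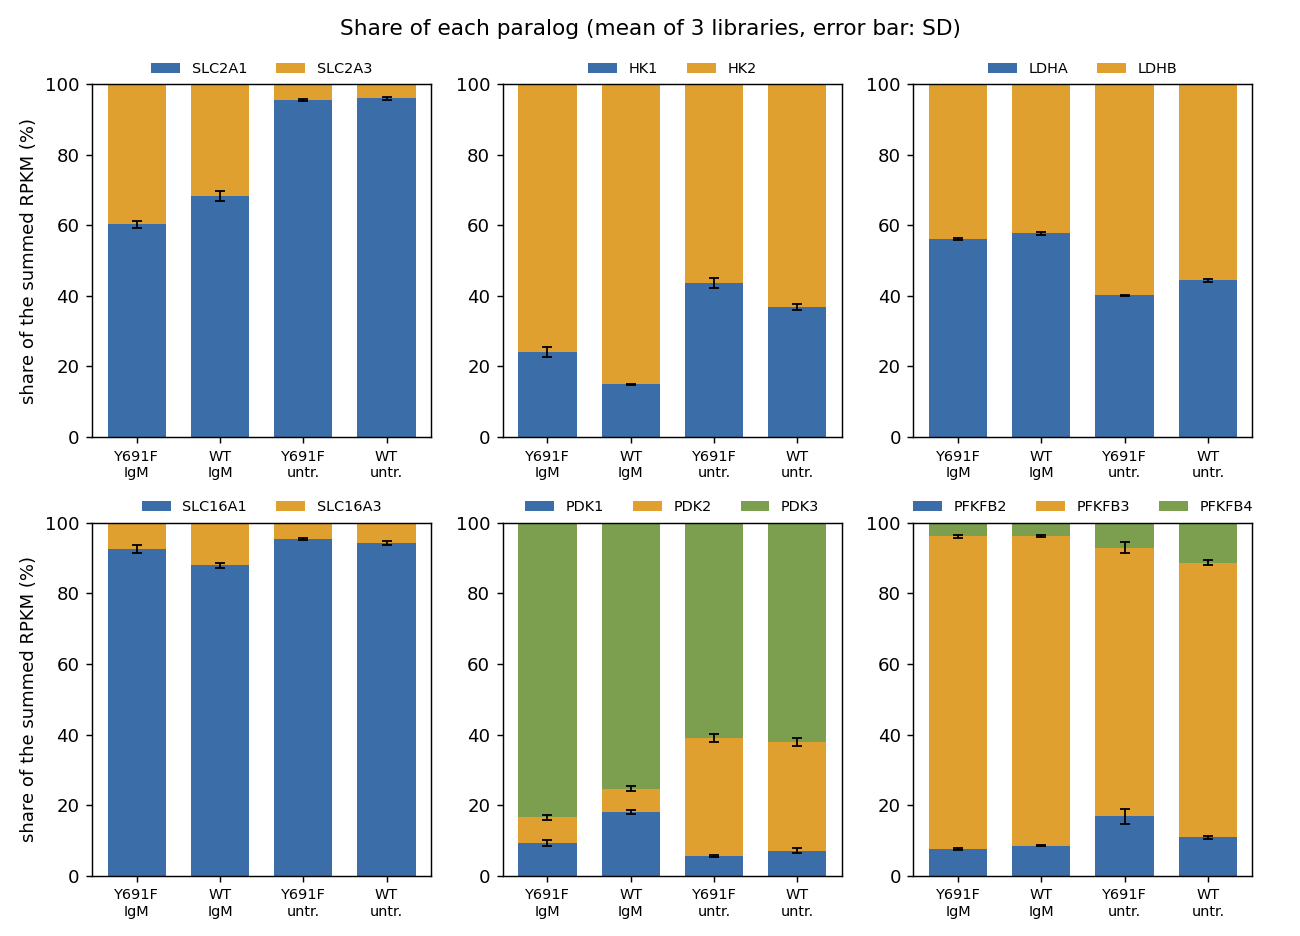
Share of the summed RPKM (vertical axis, percent) held by each paralog in 6 gene sets, as the mean of 3 libraries in each of the 4 groups, with SD bars at the borders between paralogs. The errors are SD. With IgM the shares of SLC2A3, HK2, LDHA and PFKFB3 are larger in both lines, and PDK2 drops to 7.46 ± 0.712% in Y691F and 6.69 ± 0.687% in WT.

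Of the pyruvate dehydrogenase kinase genes, PDK1 rose with IgM and PDK2 fell in both lines. PDK1 (ENSG00000152256, chromosome 2, 172555373 to 172608669, plus strand), the form known as a HIF-1 target, had 19.01, 18.8 and 16.4 CPM in Y691F with IgM, against 29.4, 31.05 and 27.7 CPM in WT with IgM, and 12.8, 11.5 and 12.1 CPM in untreated Y691F, against 13.04, 14.5 and 15.2 CPM in untreated WT. With IgM, Y691F was 1.62-fold lower (log2 -0.70, SE 0.069, adjusted p = 1.21e-14). The small gap at rest (-0.22, adjusted p = 0.0252) was lost without replicate 2 or 3 of untreated Y691F or replicate 2 or 3 of untreated WT (adjusted p = 0.0534 to 0.131). The DESeq2 Wald test did not call this gap (adjusted p = 0.0906). IgM raised PDK1 1.49-fold in Y691F and 2.07-fold in WT, a smaller rise in Y691F (difference -0.47, adjusted p = 2.73e-04). PDK2 (ENSG00000005882, chromosome 17, 50094737 to 50112152, plus strand), a widely expressed form, had 5.28, 4.93 and 6.08 CPM in Y691F with IgM, against 4.31, 3.83 and 3.89 CPM in WT with IgM, and 25.6, 26.98 and 25.8 CPM in untreated Y691F, against 24.6, 21.6 and 22.4 CPM in untreated WT. IgM lowered it 4.83-fold in Y691F (log2 -2.27, SE 0.087, adjusted p = 6.21e-40) and 5.69-fold in WT (log2 -2.51, SE 0.097, adjusted p = 6.96e-40), the largest fall of the 32 genes. Between the forms it was higher in Y691F with IgM (0.43, adjusted p = 0.00562). At rest it was higher too (0.19, adjusted p = 0.013), a call lost without replicate 2 of untreated Y691F or replicate 2 or 3 of untreated WT (adjusted p = 0.0507 to 0.121). The DESeq2 Wald test did not call PDK2 at rest (adjusted p = 0.139).

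PDK3 (ENSG00000067992, chromosome X, 24465221 to 24539837, plus strand), the remaining kinase of the set, had 29.5, 29.7 and 30.4 CPM in Y691F with IgM, against 21.2, 23.8 and 21.9 CPM in WT with IgM, without overlap (log2 0.42, SE 0.063, adjusted p = 2.89e-08). In untreated cells the levels were 23.5 ± 0.558 CPM in Y691F and 22.7 ± 0.612 CPM in WT, with no call (0.052, adjusted p = 0.573, interval -0.069 to 0.17). It rose with IgM in Y691F (0.34, adjusted p = 4.23e-07) and was not called in WT (-0.023, adjusted p = 0.749), and the responses differed by 0.37 (adjusted p = 7.15e-04). Per kilobase, PDK3 held 83.4 ± 0.336% of the 3 kinases in Y691F with IgM, 75.3 ± 1.13% in WT with IgM, 60.96 ± 0.975% in untreated Y691F and 62.1 ± 0.647% in untreated WT. The share of PDK1 was 9.16 ± 0.848% in Y691F with IgM and 17.99 ± 0.593% in WT with IgM, and that of PDK2 was 7.46 ± 0.712% in Y691F with IgM and 6.69 ± 0.687% in WT with IgM. Untreated, PDK2 had 33.3 ± 1.21% in Y691F and 30.8 ± 1.11% in WT. The summed RPKM of the 3 genes was 10.3 ± 0.234 in Y691F with IgM, 8.51 ± 0.48 in WT with IgM, 12.2 ± 0.213 in untreated Y691F and 11.5 ± 0.268 in untreated WT.

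Of the 5 genes that bring pyruvate into mitochondria and oxidise it, none was called lower in Y691F in either state by edgeR, DESeq2 or limma-voom, nor lower at an unadjusted p under 0.05 by edgeR: with IgM 3 were called higher, and untreated 1 was. Of all tested genes 21.9% were called higher with IgM and 15.1% untreated, and the untreated count is near that share. Called lower were 20.2% of all tested genes with IgM and 16.1% untreated. With only 5 genes, the absence of lower calls is near those shares. DLAT, the E2 subunit of pyruvate dehydrogenase, had 353, 346 and 384 CPM in Y691F with IgM, against 309, 307 and 315 CPM in WT with IgM, and 389.7, 406 and 399.9 CPM in untreated Y691F, against 373, 373 and 353 CPM in untreated WT. It was higher in Y691F without overlap in both states (log2 0.22, SE 0.031, adjusted p = 7.93e-09 with IgM and log2 0.12, SE 0.03, adjusted p = 9.16e-04 untreated). PDHB, an E1 subunit, was higher in Y691F with IgM, at 54.3, 58.1 and 55.1 CPM against 52.2, 46.3 and 49.5 CPM in WT with IgM (0.18, adjusted p = 0.00101). PDHA1, the other E1 subunit, stood at 161 ± 3.07 CPM in Y691F with IgM and 150.1 ± 5.104 CPM in WT with IgM (0.10, adjusted p = 0.014), a call lost without replicate 3 of WT with IgM (adjusted p = 0.0878). At rest PDHB and PDHA1 were not called between the forms (log2 0.08 for PDHB, adjusted p = 0.183, and 0.043 for PDHA1, adjusted p = 0.364). IgM lowered DLAT in both lines (-0.14 in Y691F and -0.24 in WT) and raised PDHA1 in both (0.29 in Y691F and 0.23 in WT). MPC1 and MPC2 encode the subunits of the mitochondrial pyruvate carrier, and neither was called between the forms in either state (unadjusted p = 0.0811 for MPC1 and 0.152 for MPC2 with IgM, and 0.33 for MPC1 and 0.149 for MPC2 untreated, by the edgeR quasi-likelihood test). MPC2 fell with IgM in both lines, to 41.5 ± 0.766 CPM in Y691F, against 62.5 ± 1.59 CPM untreated, and to 39.5 ± 0.554 CPM in WT, against 65.1 ± 1.83 CPM untreated (-0.59, adjusted p = 8.32e-21 in Y691F, and -0.72, adjusted p = 1.58e-25 in WT). DCAF6, which overlaps MPC2 on the other strand with up to 71.4% of its counts, fell too (-0.34 in Y691F and -0.36 in WT), and its part was not tested. MPC1, at 7.72 to 11.5 CPM over the 12 libraries, was not called with IgM in Y691F (-0.11, adjusted p = 0.292) and fell in WT (-0.38, adjusted p = 3.50e-04), and the difference of responses was not called (0.27, adjusted p = 0.146).

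Other genes of the same routes gave other counts. Of 47 further isoenzymes, transporters and subunits, 24 were tested. With IgM, Y691F had 9 of them higher and 1 lower (median 0.092), and 8 higher and 2 lower untreated (median 0.06, and 4 higher by DESeq2). These were 37.5% higher and 4.17% lower with IgM, against 21.9% of all tested genes higher and 20.2% lower, and 33.3% higher and 8.33% lower untreated, against 15.1% of all tested genes higher and 16.1% lower. With IgM 12 rose and 10 fell in Y691F, and 11 rose and 9 fell in WT. Of all tested genes 37.1% rose and 38.7% fell in Y691F, and 38.4% rose and 38.5% fell in WT. FBP1, the gluconeogenic enzyme that works against phosphofructokinase, stood at 216 ± 6.804 CPM in Y691F with IgM and 88.2 ± 2.37 CPM in WT with IgM, and at 86.1 ± 5.52 CPM in untreated Y691F and 39.9 ± 0.641 CPM in untreated WT. It was higher in Y691F by 2.45-fold with IgM (log2 1.29, SE 0.037, adjusted p = 5.18e-48) and 2.16-fold untreated (log2 1.11, SE 0.044, adjusted p = 1.82e-37), and it rose with IgM in both lines (1.33 in Y691F and 1.14 in WT). Libraries of the lines did not overlap in either state, and the direction was opposite to that of PFKP, PFKM and PFKL. SLC2A5, the fructose transporter GLUT5, was higher in Y691F in both states (1.12 with IgM and 0.83 untreated), and SLC2A6, which encodes GLUT6, was higher with IgM (0.92). PDP2, a phosphatase that reactivates pyruvate dehydrogenase, was higher in untreated Y691F (0.37). PDPR, a regulator of that phosphatase, fell with IgM in both lines (-1.22 in Y691F and -1.32 in WT), and SLC2A14 rose beside SLC2A3 (4.39 in Y691F and 4.45 in WT).

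In the pentose phosphate pathway, which branches off after hexokinase, all 8 listed genes were tested, with 4 higher and 3 lower in Y691F with IgM and 1 higher and 3 lower untreated. The background was 21.9% of all tested genes higher and 20.2% lower with IgM, and 15.1% of all tested genes higher and 16.1% lower untreated. The number higher untreated was 2 with library totals, with at least 5 CPM in 3 libraries, with the 2 groups alone, and without replicate 2 or 3 of Y691F with IgM, replicate 3 of WT with IgM or replicate 1 of untreated WT. PGD, whose enzyme forms NADPH, was higher in Y691F with IgM (0.50, adjusted p = 5.36e-26), and the ribose-phosphate isomerase gene RPIA was lower (-0.20, adjusted p = 5.87e-05). Untreated, PGD was higher (0.25), and RPIA and the transketolase gene TKT were lower (-0.24 for RPIA and -0.10 for TKT), and TKT lost its call without replicate 1 of untreated WT (adjusted p = 0.0871), where 1 gene of the list was lower in place of 3. IgM raised RPIA (0.84 in Y691F and 0.80 in WT) and lowered the transaldolase gene TALDO1 (-0.68 in Y691F and -0.65 in WT) and the lactonase gene PGLS (-0.67 in Y691F and -0.74 in WT). In all, 3 of the 8 rose and 4 fell in Y691F, and 2 rose and 5 fell in WT, where of all tested genes 37.1% rose and 38.7% fell in Y691F, and 38.4% rose and 38.5% fell in WT. The number that rose in WT was 1 with library totals, by DESeq2, with at least 5 CPM in 3 libraries and without replicate 1 of WT with IgM.

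Among 16 regulators of glucose use 11 were tested. With IgM, 6 were lower and 1 higher in Y691F (3 lower without replicate 1 of WT with IgM), and untreated 2 were lower and 2 higher (1 higher by DESeq2 and without replicate 3 of untreated Y691F or replicate 2 of untreated WT). The background was 21.9% of all tested genes higher and 20.2% lower with IgM, and 15.1% of all tested genes higher and 16.1% lower untreated, so that both untreated shares of the regulators, 18.2%, are near it. With IgM 4 rose and 4 fell in Y691F, and 6 rose and 3 fell in WT (with library totals 2 rose in WT), where of all tested genes 37.1% rose and 38.7% fell in Y691F, and 38.4% rose and 38.5% fell in WT. MYC had 16.3, 15.3 and 14.1 CPM in Y691F with IgM, against 20.2, 18.7 and 18.2 CPM in WT with IgM, and 18.3, 20.5 and 18.2 CPM in untreated Y691F, against 11.5, 12.2 and 12.5 CPM in untreated WT. It was lower in Y691F with IgM (-0.32, adjusted p = 3.17e-04) and higher at rest (0.65, adjusted p = 1.41e-11). MYC itself fell with IgM in Y691F (-0.31) and rose in WT (0.66, difference -0.97, adjusted p = 3.99e-12). A link between MYC mRNA and the levels of the 32 genes was not tested. HIF1A was slightly higher in Y691F with IgM (0.14, adjusted p = 0.00439) and not called at rest (-0.095, adjusted p = 0.09), and it rose with IgM in both lines (0.45 in Y691F and 0.21 in WT), the rise in WT a call lost with library totals (adjusted p = 0.0905). MLXIP, a glucose-sensing factor, was lower in Y691F in both states (-0.17 with IgM and -0.22 untreated). ARNT, the partner of HIF1A, was lower with IgM (-0.25), and MLX, the partner of MLXIP, was lower untreated (-0.15). TXNIP, a brake on glucose uptake, had 5.003, 4.77 and 5.26 CPM in Y691F with IgM, against 7.24, 5.56 and 7.27 CPM in WT with IgM, and 10.6, 12.6 and 13.3 CPM in untreated Y691F, against 13.3, 12.3 and 13.8 CPM in untreated WT. It fell with IgM in both lines (-1.28, adjusted p = 9.80e-19 in Y691F, and -0.98, adjusted p = 1.35e-14 in WT) and was lower in Y691F with IgM (-0.41, adjusted p = 0.00566), a call lost without replicate 1 of WT with IgM (adjusted p = 0.0539). VHL, which marks HIF for destruction, fell with IgM as well (-0.51 in Y691F and -0.54 in WT).

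Genes outside glycolysis that respond to hypoxia were set beside the members. Of 23 listed genes 18 were tested, with 2 higher and 15 lower in Y691F with IgM and 1 higher and 11 lower untreated. Their median log2 changes by edgeR were -0.49 with IgM and -0.38 untreated. By DESeq2, and with at least 5 CPM in 3 libraries, 1 was higher with IgM and 0 untreated. The number higher untreated was also 0 with the 2 groups alone and without replicate 2 or 3 of untreated WT. The background was 21.9% of all tested genes higher and 20.2% lower with IgM, and 15.1% of all tested genes higher and 16.1% lower untreated. The angiogenic factor gene VEGFA was lower in Y691F in both states (-1.26 with IgM and -1.91 untreated). The gene of the vasodilator peptide ADM and that of the transcriptional repressor BHLHE40 were lower with IgM (-1.21 for ADM and -0.86 for BHLHE40). The mitophagy gene BNIP3 and the adenylate kinase gene AK4 were lower untreated (-0.82 for BNIP3 and -0.67 for AK4). With IgM 16 rose in Y691F, and 17 rose and 1 fell in WT, among them VEGFA (3.34 in Y691F and 2.69 in WT), BHLHE40 (5.15 in Y691F and 4.62 in WT) and the ubiquitin ligase gene WSB1 (2.70 in Y691F and 2.85 in WT). Of all tested genes 37.1% rose in Y691F and 38.4% in WT, and with library totals 1 listed gene fell in Y691F.

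Some members have many copies in the genome. Pseudogenes named after a member carried 4.31% to 5.46% as many counts as the gene for TPI1, 4.08% to 4.61% for LDHA, 2.53% to 4.47% for PGAM1, 2.504% to 3.48% for HK2 and 0.78% to 0.912% over 61 pseudogenes for GAPDH. Adding these counts to the gene left every call among the members unchanged in all 5 comparisons. Related genes with other names were not added. The isoenzyme gene PGAM4 had 27.1 to 42.1 CPM over all libraries, beside 122 to 176 CPM for PGAM1. For PFKM, the gene SENP1 on the other strand had up to 92.5% of its counts, and it too was lower in Y691F (-0.17 with IgM and -0.23 untreated). An antisense gene, SLC16A1-AS1, had up to 16.4% of the counts of SLC16A1, and AC093818.1 up to 16.7% of those of PDK1. The libraries mark the strand, but no source used here says whether the counting made use of it, and the part of these reads was not tested.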

How the data were processed

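Strand-specific polyA+ RNA-seq was measured in 12 libraries, 3 for each of 4 groups. The deposited table holds a read count and an RPKM value per gene and library, per the file headers. Reads were aligned to GRCh38 with STAR 2.5.0b and DESeq2 was used, per the submitters' processing notes, and no source used here names the counting tool or the release of the annotation. RPKM, as deposited by the authors, was used for levels between genes and for paralog shares. RPKM was 0 exactly where the count was 0. Counts were tested with edgeR 4.0.16 (R 4.3.3): filterByExpr kept 15112 of 60675 genes, TMM factors were used, and all 12 libraries were fitted with 1 coefficient per group by the robust quasi-likelihood test. P-values were adjusted by Benjamini-Hochberg over all tested genes. Intervals are the log2 change ± 1.96 SE (95%). Library totals of 16465393 to 21478790 counts set the precision, and replicates varied by 2.51% beyond counting error (biological coefficient of variation). No libraries were identical or agreed within counting error. The fit recovered most fold changes planted in simulated counts, but none as small as most differences between the forms was planted. The members, gene lists and named genes were chosen with earlier results of these data known. All 32 members are named, and up to 3 called genes with the smallest adjusted p per list and comparison, of which 1 gene is not reported here. Alternatives were DESeq2 size factors, library totals, the DESeq2 1.42.0 Wald test, limma-voom (limma 3.58.1), no filter, 5 CPM in 3 libraries, only the 2 groups compared, the replicate number as a block, each library left out, and, added after seeing the data, pseudogene counts.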

Additional observations from a re-analysis of the deposited data

Results flagged for a closer look

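For 19 of the 32 genes the IgM response differed between Y691F and WT by the test of the difference itself (edgeR quasi-likelihood interaction, adjusted p under 0.05). In log2 units, the response in Y691F minus that in WT was above 0 for PFKFB4 (1.02), ALDOC (0.48), PDK3 (0.37), PFKFB3 (0.35), GAPDH (0.32), HK1 (0.25), PKM (0.22), SLC16A1 (0.20), GPI (0.19), LDHA (0.18), ALDOA (0.17), TPI1 (0.17) and PGAM1 (0.13). It was below 0 for PFKFB2 (-0.50), PDK1 (-0.47), ENO2 (-0.45), SLC2A1 (-0.36), PFKM (-0.21) and HK2 (-0.19). Of all tested genes 14.7% had a difference called above 0 and 11.0% one below 0. PGAM1 and HK2 were the members whose call was lost when single libraries were left out, PGAM1 also with library totals and without a filter on low counts.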

How the results depend on the processing

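Over 21 alternatives, 3230 of 3328 values of single members in single comparisons kept their direction and their side of the threshold, 50 lost the call, 16 gained one and 32 changed sign. None of the sign changes was called under both settings. The number of members higher in untreated Y691F was 2, and it was 1 with the DESeq2 Wald test and 1 to 2 when single libraries were left out (1 without replicate 2 or 3 of untreated WT or replicate 2 of untreated Y691F), where PDK2 lost its call. With library totals, sign changes gave the following log2 values. In the IgM response of Y691F they were -0.049 for GAPDH, -0.14 for GPI, -0.14 for PDHB, -0.052 for PFKFB4, -0.00449 for PKM and -0.037 for TPI1. In that of WT they were -0.035 for PFKM and -0.038 for PGAM1. In the difference of responses they were -0.00372 for LDHB, -0.016 for PFKL, -0.00298 for PGK1 and -0.017 for SLC2A3, and in Y691F against WT with IgM -0.00177 for SLC16A1. The median of all tested genes moved down with that scaling in both IgM responses. With at least 5 CPM in 3 libraries the values were -0.022 for GPI and -0.029 for PDHB in the IgM response of Y691F. PKM in Y691F against WT with IgM was 0.000922 with that filter, 0.00151 with DESeq2 size factors, 0.00298 with the DESeq2 Wald test and 0.000384 without a filter, and the cause was not tested. With single libraries left out, values that changed sign ranged from -0.012 to 0.016 for PKM in Y691F against WT with IgM, from -0.00239 to 0.049 for PDHB in the IgM response of Y691F, from -0.031 to 0.00886 for HK1 and -0.082 to 0.00995 for PDK3 in that of WT, and from -0.00264 to 0.052 for PFKL and -0.069 to 0.074 for SLC2A3 in the difference of responses. None of these was called. Counts of called genes in the lists of other genes, examined under the same alternatives after seeing the data, moved by over 1.5 times where the count was small, most often for the pentose phosphate pathway, then for hypoxia genes outside glycolysis and for regulators.

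The numbers of the replicates only name them: deviations of same-numbered libraries correlated by -0.0155 to 0.0302, and in each of the 4 comparisons at most 1 of 3 libraries correlated best with its own number. With the replicate number as a block, 1 of the 160 values of the members changed side, PKM in the IgM response of WT, at -0.057 (adjusted p = 0.0511), and every count of members called was within 1.5 times of that without the block. Depth limits PDK1, PDK2, PFKFB4, MPC1, SLC16A3 and SLC2A3, the members with the fewest reads in their lowest library. SLC2A3 was that low only in untreated cells, at 84 to 134 counts per library.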
